A study of Homo sapiens with 6 samples.

Results

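Divergent transcripts are long noncoding RNAs that start beside the promoter of a coding gene and run away from it on the opposite strand; their gene symbols carry the ending -DT after the symbol of the coding gene. The gene tables listed 123 such symbols among 28307, and the 70 described here were chosen by their measured TPM, a length-adjusted share of the transcripts in a library, which had to be above 0 in at least 3 of the 6 libraries. A further 22 were above 0 in only 1 or 2 libraries and 31 were listed at 0 in every library. Each of the 70 was compared with its coding partner, the gene whose symbol stands before -DT.

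The libraries came from SW480, an established human colon adenocarcinoma line, transduced with lentivirus and kept under stable puromycin selection. The control lines carried pLENTI CMV Clover, which encodes a fluorescent protein (Clover, n = 3), and the test lines carried pLENTI CMV Z18trunc, which encodes a truncated ZC3H18 (Z18trunc, n = 3). Both constructs are driven by the viral CMV promoter, no edit of the endogenous ZC3H18 gene is described for either group, and the lines were made in biological triplicate according to the methods of the study. PolyA-selected RNA was sequenced as stranded paired-end libraries of 18226033 to 22463310 aligned fragments.

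Promoters of mammalian coding genes commonly fire in both directions. Most of the upstream RNA is capped, short-lived and removed by the nuclear exosome, to which the cap-binding complex is linked by ZC3H18 and by the NEXT and PAXT adaptor complexes. The RNAs annotated as -DT genes are those that reach a defined, often spliced and polyadenylated form. PolyA selection shows only polyadenylated molecules, so unadenylated divergent RNA was not measured.

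ZC3H18, the gene that the construct carries, served as a check of the labels. Its level was 58.4, 51.3 and 61.8 TPM in the Clover libraries and 752, 739 and 798 TPM in the Z18trunc libraries, with no overlap (log2 change 3.74, SE 0.07, limma adjusted p = 1.34e-06). Reads of the construct and of the endogenous gene share this value. Of 14 epithelial and colon markers, 9 had a mean of at least 1 TPM, with summed levels of 23676 to 25255 TPM in Clover and 23254 to 24376 TPM in Z18trunc. CDX1, LGR5, CEACAM5 and KRT20 were listed at 0 in all 6 libraries. Of 8 markers of other cells, 3 had a mean of at least 1 TPM, with sums of 515 to 555 TPM in Clover and 522 to 560 TPM in Z18trunc, nearly all from VIM (the intermediate filament vimentin), and PTPRC, COL3A1, PECAM1 and MLANA were listed at 0.

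All 70 partners were protein coding and all lay on the opposite strand. The median distance between the annotated starts was 146.5 bp, and 62 pairs started within 500 bp of each other. In 8 pairs the 5′ ends overlapped, and 5 pairs had starts more than 1000 bp apart. Sequences are given for 5 named members that start close to their partners, none with overlap between the groups. Other members without overlap, such as PAXIP1-DT and DNAJC3-DT, are not shown. The stretches between the starts of the 5 pairs follow. They are from hg38 and read 5′ to 3′ on the strand of the coding gene, with the first 10 bases of the divergent transcript (at the left, as their complement) and of the coding gene (at the right) in capitals.

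NIPBL-DT to NIPBL, chr5:36876685-36876778, plus strand: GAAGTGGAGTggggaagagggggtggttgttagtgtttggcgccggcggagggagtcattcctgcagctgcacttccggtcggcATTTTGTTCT
EIF3J-DT to EIF3J, chr15:44536914-44537077, plus strand: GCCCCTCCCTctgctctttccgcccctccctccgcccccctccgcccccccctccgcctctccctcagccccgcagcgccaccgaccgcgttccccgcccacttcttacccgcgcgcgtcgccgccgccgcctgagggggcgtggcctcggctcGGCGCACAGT
NUP50-DT to NUP50, chr22:45163772-45163934, plus strand: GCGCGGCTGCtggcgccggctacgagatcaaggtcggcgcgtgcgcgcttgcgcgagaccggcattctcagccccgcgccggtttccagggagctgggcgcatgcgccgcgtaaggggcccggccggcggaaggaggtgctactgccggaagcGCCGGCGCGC
OSER1-DT to OSER1, chr20:44210762-44210969, minus strand: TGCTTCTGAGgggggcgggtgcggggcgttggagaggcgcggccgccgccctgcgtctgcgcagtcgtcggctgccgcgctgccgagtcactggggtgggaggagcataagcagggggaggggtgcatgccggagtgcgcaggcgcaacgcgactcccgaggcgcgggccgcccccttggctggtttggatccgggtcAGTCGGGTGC
KDM7A-DT to KDM7A, chr7:140176974-140177270, minus strand: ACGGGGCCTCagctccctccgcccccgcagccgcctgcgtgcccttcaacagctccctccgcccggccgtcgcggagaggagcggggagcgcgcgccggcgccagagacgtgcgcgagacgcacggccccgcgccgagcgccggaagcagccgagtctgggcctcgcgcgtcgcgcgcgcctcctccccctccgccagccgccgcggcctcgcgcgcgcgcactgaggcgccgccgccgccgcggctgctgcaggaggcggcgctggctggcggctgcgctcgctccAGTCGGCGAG

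The bases between the starts held 5 CpG dinucleotides for NIPBL-DT, 20 for EIF3J-DT, 22 for NUP50-DT, 24 for OSER1-DT and 53 for KDM7A-DT, and their GC content ran from 64.9% to 81.6%. In the RefSeq promoter table (GRCh38.p14, 250 bases before to 50 after each start), 57 of the 70 divergent transcripts had an entry. The median was 32 CpG for divergent transcripts, 35 for their partners and 14 for all 27305 promoters in the table. The GC box GGGCGG, searched on both strands, was present in 80.7% of the divergent promoters, in 79.0% of the partners' promoters and in 44.6% of all promoters. The TATA box TATAAA was present in 3.51%, 5.26% and 7.71%, respectively. Member and partner windows overlap where starts are close, so their values are not independent.

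Downstream of the start, in the first 1000 bases of genomic sequence on the transcribed strand, the polyadenylation hexamer AATAAA was found in 18 of 70 divergent transcripts (25.7%), in 9 of 70 partners (12.9%) and in 17.1% of 13901 detected coding genes. The 5′ splice site hexamer GTAAGT was found in 7 of 70 divergent transcripts and 7 of 70 partners, against 15.5% of detected coding genes. The median GC content of this window was 54.6% for divergent transcripts and 64.0% for partners, and AATAAA is more frequent in sequence of low GC content. These matches are letters in a window, not mapped sites.

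Divergent transcripts were low relative to the rest of the transcriptome. Averaged over the 6 libraries, 7 had at least 10 TPM, 27 had 1 to 10 TPM and 36 had under 1 TPM. Their median was 0.939 TPM, against 14.7 TPM for the partners and 8.09 TPM for all 17143 detected genes. The 5 most abundant held 44.6% of their summed TPM. The TPM of 6 members with several loci in the tables, LHX1-DT and MICB-DT among them, were summed. Of the 70, 47 were above 0 in all 6 libraries, 11 in 5, 5 in 4 and 7 in 3. At the edge of the rule, members above 0 in 3 libraries had means of 0.0403 TPM (LMNB1-DT) to 0.232 TPM (LRRC8C-DT), and the highest mean of a transcript above 0 in only 2 libraries was 0.145 TPM (IL10RB-DT).

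The median partner was 9.77 times as abundant as its divergent transcript, and 34 of the 70 members were under 0.1 times the level of the partner. In 6 pairs the order was the other way. RAB30-DT exceeded RAB30, a small GTPase of the Golgi, by 17.2 times and KDM7A-DT exceeded KDM7A, a histone lysine demethylase, by 5.31 times, each in all 6 libraries. FLVCR1-DT exceeded FLVCR1, a membrane transporter, by 1.61 times, also in all 6 libraries. CNN3-DT (2.73 times, in 4 libraries), PCCA-DT (1.17 times, in 5) and NIPBL-DT (1.11 times, in 3) stood above their partners by the mean but not in every library. Both genes of the CNN3 pair lay near 0. Clover and Z18trunc means were 0.318 and 0.275 TPM for CNN3-DT and 0.022 and 0.195 TPM for CNN3, so this ratio is uncertain. Among the named members, LY6E-DT stood lowest relative to its partner, with LY6E 375 times as abundant, and over all 70 the partner of LMNB1-DT was 2265 times as abundant.

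**Figure D1:**
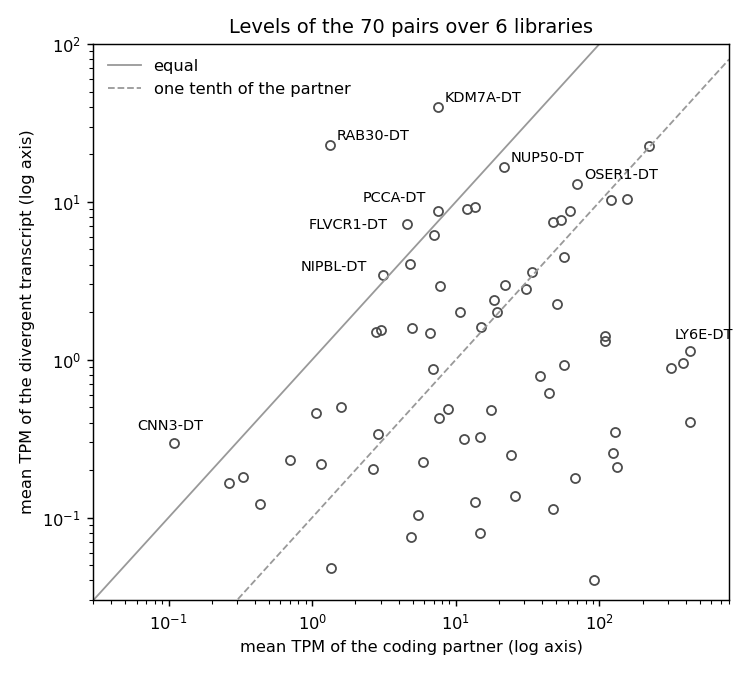
Mean TPM over the 6 libraries of each divergent transcript (vertical, log axis) against its coding partner (horizontal, log axis), 1 circle per pair, with lines at equal level and at 0.1 times the partner. Of the 70 circles, 6 lie above the line of equal level and 34 below the dashed line.

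To ask whether divergent transcripts accumulate in cells expressing the truncated ZC3H18, the 2 groups were compared with limma on log2(TPM + 0.1), a scale on which the change of low genes is understated. No divergent transcript passed an adjusted p of 0.05, and 4 of all 17143 genes did (0.0233%). Without adjustment (p under 0.05), 11 members were higher and 4 lower in Z18trunc, beside 19.5% of all genes higher and 3.83% lower. The 3 Z18trunc libraries all lay above the 3 Clover libraries for 11 members (15.7%) and all below for 4 (5.71%), against 25.6% and 6.26% of all genes. Among the 34 members with a mean of at least 1 TPM these counts were 10 (29.4%) and 4 (11.8%), against 30.1% and 6.73% of all genes at that level. The share that was higher was thus near the background for the abundant members and below it for all members together, of which 36 had under 1 TPM. In these bulk libraries, fewer cells with a transcript and less of it in each cell cannot be told apart.

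The whole distribution of TPM differed between the groups. The median detected gene stood at 7.50 ± 0.511 TPM in the Clover libraries (SD, n = 3) and at 8.69 ± 0.333 TPM in the Z18trunc libraries (SD, n = 3), which is 0.21 on the log2 scale. The median fitted log2 change was 0.12 over all genes and 0.21 over the divergent transcripts, and after quantile normalization, which gives every library the same distribution, -0.004 and 0.09. Without adjustment (p under 0.05) there were then 8 higher and 5 lower among the members, and 1768 higher and 1770 lower among all genes.

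The summed level shows the same dependence. Divergent transcripts added up to 243, 237 and 239 TPM in Clover and to 259, 280 and 283 TPM in Z18trunc, without overlap (log2 ratio 0.19). Antisense genes (-AS symbols) had a log2 ratio of 0.07, LINC genes 0.12 and the coding partners 0.08. The sums of these sets did not overlap between the groups either. When each library was scaled to the same median gene, the sums of the divergent transcripts were 260 ± 15.3 TPM in Clover and 255 ± 5.40 TPM in Z18trunc (SD, n = 3 each), the groups overlapped and the log2 ratio was -0.02. The sums of the other sets were not scaled in this way.

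Several members were higher in Z18trunc without overlap, although none passed the adjustment. KDM7A-DT, the most abundant, measured 35.1, 33.8 and 36.0 TPM in Clover and 43.0, 45.5 and 45.2 TPM in Z18trunc (log2 change 0.35, SE 0.06, limma adjusted p = 0.072). NIPBL-DT lies beside NIPBL, which loads cohesin onto chromatin, and measured 2.58, 2.87 and 2.32 TPM in Clover and 4.17, 4.18 and 4.67 TPM in Z18trunc (log2 change 0.73, SE 0.16, limma adjusted p = 0.083). PAXIP1-DT, beside the gene of the DNA damage response protein PTIP, measured 8.18, 6.74 and 7.50 TPM in Clover and 11.3, 10.2 and 10.5 TPM in Z18trunc (log2 change 0.51, SE 0.12, limma adjusted p = 0.086). In each of these 3 the lowest Z18trunc library was above the highest Clover library. Of their partners, KDM7A was also higher without overlap, and NIPBL and PAXIP1 overlapped between the groups.

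EIF3J-DT lies beside EIF3J, a subunit of translation initiation factor eIF3, and measured 7.73, 7.72 and 7.04 TPM in Clover and 10.1, 10.5 and 9.67 TPM in Z18trunc (log2 change 0.43, SE 0.10, limma adjusted p = 0.089). PCCA-DT, beside a gene for a subunit of mitochondrial propionyl-CoA carboxylase, measured 7.27, 8.73 and 7.18 TPM in Clover and 9.72, 9.35 and 10.6 TPM in Z18trunc (log2 change 0.36, SE 0.12, limma adjusted p = 0.143). The groups did not overlap for either, and the partners EIF3J and PCCA were also higher without overlap. PCCA went from 6.02 ± 0.537 to 9.09 ± 0.732 TPM (both SD, n = 3), a larger log2 change (0.59) than that of PCCA-DT. After quantile normalization the log2 change was 0.23 for EIF3J-DT and 0.16 for PCCA-DT.

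Further higher members with an unadjusted p under 0.05 included DNAJC3-DT, EIF2AK3-DT, DOCK9-DT, RPP38-DT and MICB-DT, which are named here after their values were seen. DNAJC3 encodes a cochaperone of the endoplasmic reticulum, and DNAJC3-DT went from 1.42 ± 0.279 to 2.58 ± 0.261 TPM (both SD, n = 3). EIF2AK3 encodes the endoplasmic reticulum stress kinase PERK, and EIF2AK3-DT went from 1.05 ± 0.171 to 1.91 ± 0.361 TPM (both SD, n = 3). DOCK9-DT went from 1.71 ± 0.240 to 2.83 ± 0.519 TPM (both SD, n = 3). RPP38-DT and MICB-DT were at or under 0.531 TPM in the mean of each group. The limma adjusted p of these 5 ranged from 0.096 to 0.181, and of these 5 the groups overlapped for MICB-DT alone. The partners DNAJC3, EIF2AK3, DOCK9 and RPP38 were also higher without overlap, and MICB overlapped.

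NUP50-DT and OSER1-DT were lower in Z18trunc while their partners were higher. NUP50 encodes a nuclear pore protein, and NUP50-DT measured 17.8, 18.7 and 19.7 TPM in Clover and 14.2, 13.5 and 15.9 TPM in Z18trunc (log2 change -0.36, SE 0.09, limma adjusted p = 0.096). NUP50 went from 18.7 ± 2.34 to 24.5 ± 0.724 TPM (both SD, n = 3), with a log2 change of 0.39 (limma adjusted p = 0.097). Neither gene overlapped between the groups, and their differences had opposite signs.

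OSER1 is a gene first described as responsive to oxidative stress. OSER1-DT measured 13.4, 14.7 and 14.6 TPM in Clover and 11.03, 12.5 and 11.5 TPM in Z18trunc (log2 change -0.29, SE 0.09, limma adjusted p = 0.135). OSER1 went from 65.7 ± 3.39 to 74.3 ± 1.90 TPM (both SD, n = 3), with a log2 change of 0.18 (limma adjusted p = 0.134). The median gene differed by 0.21 on the log2 scale, and the median fitted change over all genes was 0.12. The higher level of OSER1 is thus not set apart from the general shift. After quantile normalization the log2 changes were -0.53 for NUP50-DT and -0.47 for OSER1-DT.

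LY6E-DT, beside an interferon-induced gene, measured 1.09, 1.36 and 1.87 TPM in Clover and 0.726, 0.815 and 0.914 TPM in Z18trunc (log2 change -0.72, SE 0.26, limma adjusted p = 0.159). CEBPA-DT, beside a gene for a transcription factor of differentiation, measured 2.03, 1.81 and 2.11 TPM in Clover and 1.65, 1.23 and 0.893 TPM in Z18trunc (log2 change -0.66, SE 0.25, limma adjusted p = 0.178). Both were lower in all 3 Z18trunc libraries without passing the adjustment, and their partners overlapped between the groups.

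Several other named members did not separate the groups. RAB30-DT measured 26.6, 18.7 and 20.7 TPM in Clover and 23.8, 20.8 and 26.3 TPM in Z18trunc, and CTBP1-DT, beside a transcriptional corepressor gene, had means of 10.1 and 10.9 TPM. GAS6-DT, beside the gene of a ligand of TAM receptor kinases, had means of 9.53 and 11.1 TPM. FLVCR1-DT had means of 7.51 and 7.07 TPM, LLPH-DT of 4.53 and 3.55 TPM, and MAP4K3-DT of 1.02 and 0.735 TPM. All of them overlapped between Clover and Z18trunc. Of their partners, RAB30, LLPH and MAP4K3 were higher in Z18trunc without overlap, and CTBP1, GAS6 and FLVCR1 overlapped.

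LHX1-DT varied more within the groups than between them. It measured 10.7, 11.9 and 1.999 TPM in Clover and 2.90, 12.9 and 15.4 TPM in Z18trunc, so that 1 library of each group lay far below the others. Its deposited mean read coverage was 0.144 to 1.76. Coverage did not follow TPM from gene to gene: CAMTA1, with a Clover mean of 107 TPM, had a coverage of 2.20 to 2.86. The coverage therefore does not show how many reads lie behind LHX1-DT. LHX1, a LIM homeobox transcription factor gene, was at 12.2 ± 0.894 and 14.99 ± 1.37 TPM (both SD, n = 3) and showed no such split.

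**Figure D2:**
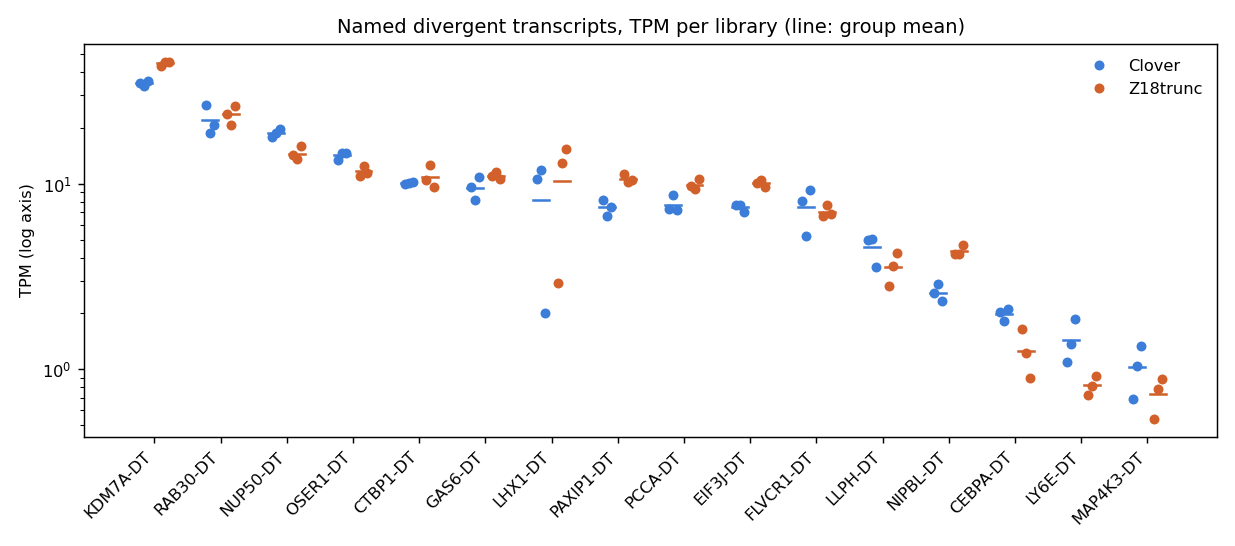
TPM (log axis) of the named divergent transcripts in each library, ordered by mean level, with points for the 3 Clover and 3 Z18trunc libraries and a line at each group mean. The groups separate upward for KDM7A-DT, PAXIP1-DT, EIF3J-DT, PCCA-DT and NIPBL-DT and downward for NUP50-DT, OSER1-DT, LY6E-DT and CEBPA-DT, and LHX1-DT spreads from 1.999 to 15.4 TPM.

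The coding partners were compared in the same fit. None of the 70 passed the adjustment by limma, 28 were higher and 3 lower without adjustment (p under 0.05), and 30 were higher (42.9%) and 2 lower (2.86%) without overlap, beside the 25.6% and 6.26% of all genes. Among all genes with a mean of at least 1 TPM, the shares without overlap were 30.1% and 6.73%. After quantile normalization the unadjusted counts of the partners became 13 higher and 5 lower. Of the 15 members with an unadjusted p under 0.05, 13 had a partner whose difference had the same sign. For 11 the partner also had an unadjusted p under 0.05. Over all 70 partners, 58 had a log2 change above 0 and 12 below, so a shared sign was the usual case for a higher member. Across pairs, Pearson's r between the log2 change of member and partner was 0.02 over all 70 and 0.38 over the 34 with a mean member level of at least 1 TPM, where both values come from the same 6 libraries and the pairs are not replicates.

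**Figure D3:**
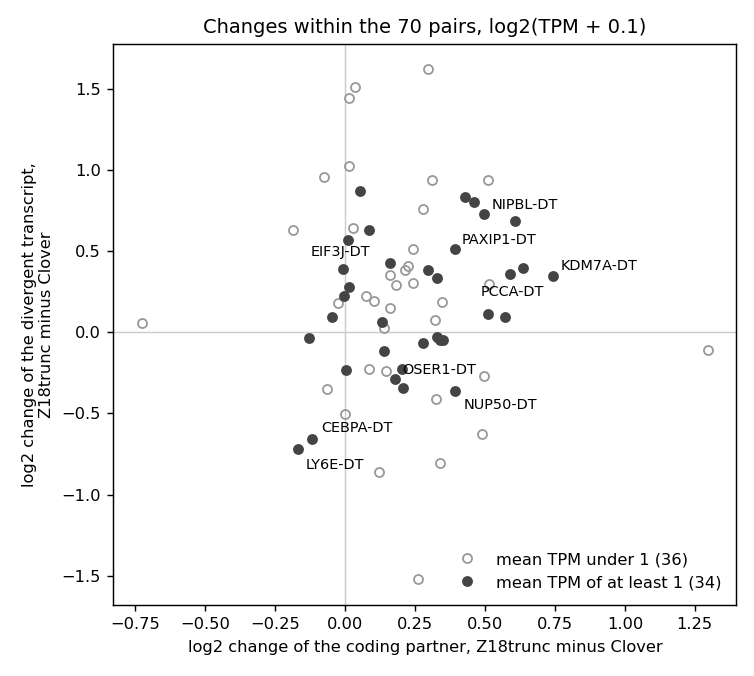
Fitted log2 change (Z18trunc minus Clover, TPM + 0.1) of each divergent transcript (vertical) against that of its coding partner (horizontal), with filled points for the 34 members of at least 1 TPM and open points for the 36 below. NUP50-DT (-0.36) and OSER1-DT (-0.29) lie right of 0 and below 0, and open points scatter more widely than filled ones.

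To ask whether a divergent transcript changed relative to its own coding gene, the log2 ratio of the pair was tested. The test covered 1770 pairs of detected genes that start head to head within 1000 bp or carry the -DT name. The ratio removes a shift that both genes share equally, but the added 0.1 damps the change of a low member more than that of an abundant partner. By limma, no pair passed an adjusted p of 0.05 (0%), and 245 had an unadjusted p under 0.05 (13.8%). Among the 70 divergent pairs 7 did (10.0%), 3 with a higher and 4 with a lower ratio in Z18trunc, beside 15.5% of 993 pairs of coding genes. The share of divergent pairs was thus not above the background.

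NUP50-DT had the smallest p-value of the 70 ratios. Its log2 ratio to NUP50 was -0.13, 0.21 and -0.07 in Clover and -0.74, -0.85 and -0.66 in Z18trunc, so that a pair at equal level in Clover had a member at a lower level than the partner in all Z18trunc libraries. The log2 change of the ratio was -0.75 (SE 0.12, limma adjusted p = 0.075). For OSER1-DT it was -0.47 (SE 0.11, limma adjusted p = 0.173), also without overlap between the groups. For LLPH-DT it was -0.55 (SE 0.21, limma adjusted p = 0.289), again without overlap, although the TPM of LLPH-DT itself overlapped. For KDM7A-DT the log2 difference of the ratio was -0.39 (SE 0.17, limma adjusted p = 0.337), while KDM7A went from 5.60 ± 1.05 to 9.39 ± 1.19 TPM (both SD, n = 3), a larger fold than that of its divergent transcript.

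**Figure D4:**
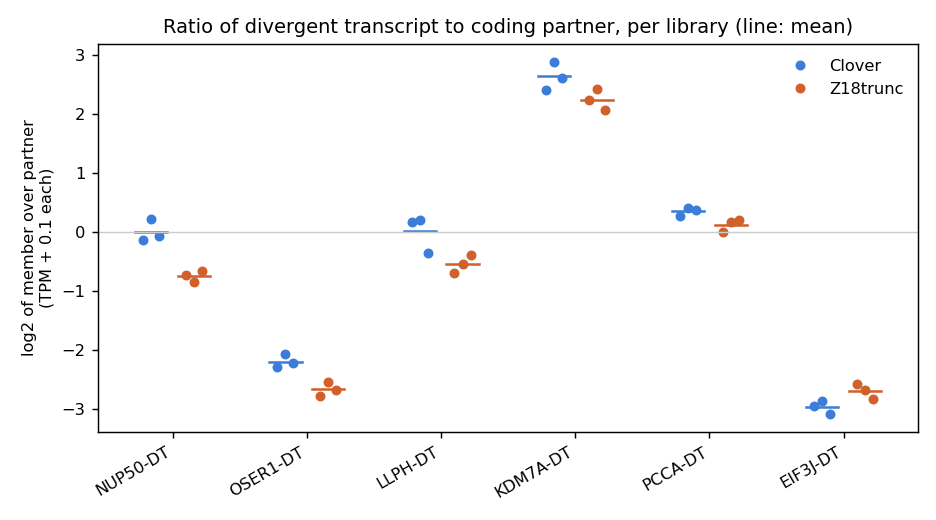
Log2 ratio of divergent transcript to coding partner (TPM + 0.1 each) in each library for 6 pairs, with points for libraries, lines at group means and a grey line at equal level. NUP50-DT lies around 0 in Clover and between -0.85 and -0.66 in Z18trunc, and OSER1-DT between -2.29 and -2.07 in Clover and between -2.78 and -2.54 in Z18trunc.

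A second readout came from transposable elements (TEs), the repeats that the study counted locus by locus and by strand. Of the 70 divergent transcripts, 63 held TE fragments of LTR, LINE, SINE or DNA elements on their own strand, and 35 held at least 30 over the 6 libraries. These fragments are part of the same libraries and are not an independent sample. Expressed as CPM, the count over the aligned fragments of the library times 1000000, they summed to 93.2 ± 0.421 CPM in Clover (SD, n = 3) and to 104 ± 4.92 CPM in Z18trunc (SD, n = 3). Opposite-strand TEs inside the members' spans that lay in no gene of that strand held fragments in 22 spans. They gave 2.45 ± 0.146 CPM in Clover and 2.29 ± 0.205 CPM in Z18trunc (both SD, n = 3). The sums of the strands cover different sets of spans and TEs, so their sizes are not directly comparable.

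The edgeR quasi-likelihood test was run on the TE fragments inside 10393 gene spans, and 64 spans passed an adjusted p of 0.05 (0.616%). None of the 35 members did, by edgeR or by DESeq2. At an unadjusted p under 0.05, edgeR found 7 members higher and 1 lower, beside 15.4% and 0.885% of all spans, and DESeq2 found 0 higher and 2 lower. In CPM, 11 of the 35 members were higher and 1 lower without overlap, beside 1960 and 216 of the 10393 spans. The median log2 change over all spans was 0.23 when libraries were scaled by their aligned fragments and 0.01 under TMM scaling, and with TMM the members were 3 higher and 5 lower.

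PAXIP1-DT gave 2.85, 2.25 and 3.01 CPM of TE fragments in Clover and 3.34, 4.11 and 3.67 CPM in Z18trunc (log2 change 0.45, SE 0.21, edgeR adjusted p = 0.282). KDM7A-DT gave 7.08, 7.84 and 8.05 CPM in Clover and 8.42, 9.77 and 8.72 CPM in Z18trunc (log2 change 0.23, SE 0.14, edgeR adjusted p = 0.434). All TE fragments of both lay in TEs that touch an annotated exon of their strand, and neither overlapped between the groups. OSER1-DT gave 7.79, 9.83 and 8.76 CPM in Clover and 6.86, 6.47 and 7.62 CPM in Z18trunc (log2 change -0.33, SE 0.15, edgeR adjusted p = 0.266), the same sign as its TPM. For 4 other named members the TE and TPM differences had opposite signs, and their TE levels overlapped between the groups. LY6E-DT gave 0.890, 0.993 and 0.458 CPM in Clover and 0.935, 1.10 and 1.0002 CPM in Z18trunc (log2 change 0.36, SE 0.37, edgeR adjusted p = 0.653). The log2 change of TE fragments was -0.13 for PCCA-DT (SE 0.32), -0.17 for CTBP1-DT (SE 0.22) and -0.05 for GAS6-DT (SE 0.29), with edgeR adjusted p from 0.732 to 0.949. LHX1-DT gave 0.712, 0.575 and 0.764 CPM in Clover and 0.846, 0.878 and 0.857 CPM in Z18trunc, without the split of its TPM. RAB30-DT gave 0.534, 0.470 and 0.357 CPM in Clover and 0.668, 0.549 and 0.714 CPM in Z18trunc. Neither overlapped between the groups, but both rest on few fragments (95 and 68 over the 6 libraries). Their edgeR adjusted p was 0.706 and 0.609.

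In NUP50-DT the TE fragments inside and outside exons had differences of opposite sign. Over the whole span the level was 12.7 ± 0.512 CPM in Clover and 12.2 ± 1.39 CPM in Z18trunc (SD, n = 3 each), a log2 change of -0.06. TEs that touch an exon of GENCODE 44 on this strand gave 7.21, 7.005 and 7.54 CPM in Clover and 4.90, 5.49 and 4.81 CPM in Z18trunc, without overlap. TEs outside exons gave 6.05, 5.33 and 4.89 CPM in Clover and 5.70, 7.46 and 8.24 CPM in Z18trunc, and these groups overlapped. The split was made after the values over the whole span had been seen, and no test was run on it. MAP4K3-DT, whose span is the longest of those named, gave 572 of its 926 TE fragments outside exons, with 7.78 ± 1.0002 CPM in Clover and 7.26 ± 1.48 CPM in Z18trunc (SD, n = 3 each) over the whole span.

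**Figure D5:**
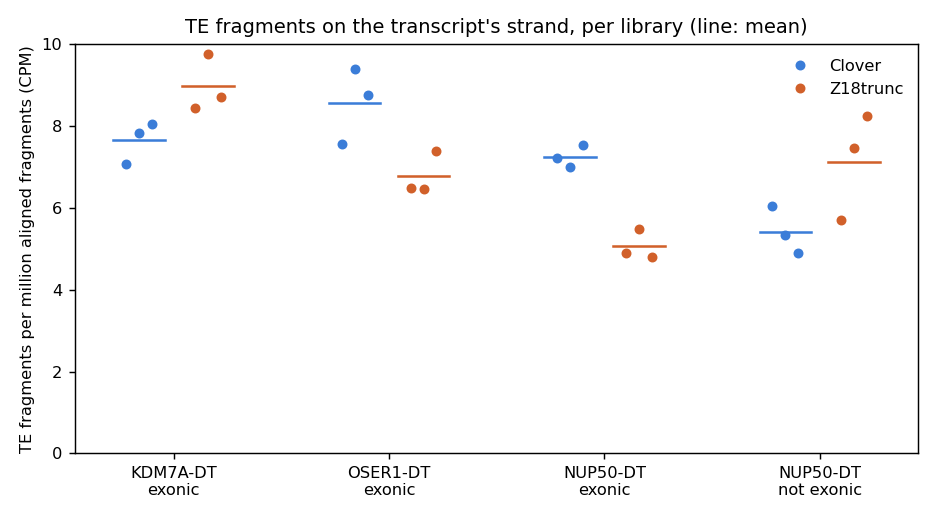
TE fragments in CPM on the strand of the transcript, per library, split by whether the TE touches an annotated exon, with lines at group means. Exonic NUP50-DT lies at or over 7.005 CPM in Clover and at or under 5.49 CPM in Z18trunc, and NUP50-DT outside exons overlaps between the groups.

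The nuclear RNA surveillance genes that act on divergent RNA were listed with 45 members. One passed the adjustment, ZC3H18 itself, 19 were higher and 1 lower without adjustment (p under 0.05), and after quantile normalization 12 were higher and 4 lower. Over all 17143 genes the shares were 19.5% higher and 3.83% lower, and after quantile normalization 1768 genes were higher and 1770 lower. The NEXT subunits MTREX, ZCCHC8 and RBM7 had Clover means of 14.7, 6.21 and 10.1 TPM and Z18trunc means of 19.8, 8.66 and 13.2 TPM. Their limma adjusted p ranged from 0.090 to 0.164. After quantile normalization 1 of these 3 was higher at an unadjusted limma p under 0.05, and their median log2 change was 0.25 instead of 0.41. None of the 2 restrictor and 3 U1 snRNP genes on the list had an unadjusted limma p under 0.05. ZFC3H1, the scaffold of PAXT, went from 3.83 ± 0.875 to 6.02 ± 1.003 TPM (both SD, n = 3), and NCBP1, the large cap-binding subunit, from 26.6 ± 2.29 to 34.8 ± 2.95 TPM (both SD, n = 3). EXOSC4, a ring subunit of the exosome, went from 100 ± 5.09 to 80.6 ± 5.69 TPM (both SD, n = 3). The part of these genes in the levels of divergent transcripts was not tested.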

How the data were processed

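PolyA-selected, stranded paired-end RNA-seq libraries of SW480 cells (3 Clover, 3 Z18trunc) were trimmed by the authors with cutadapt 4.6 and run through SQuIRE on hg38. The deposited gene tables give TPM, FPKM and mean read coverage per gene, without counts, in the layout of StringTie, and whether they used strand is not given in the sources used here. The deposited TE tables give uniquely mapped counts and the authors' estimated counts (multiply mapped fragments shared among loci), neither normalized.

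TPM was summed by symbol. Genes above 0 in at least 3 libraries (17143) entered a limma 3.58.1 fit of log2(TPM + 0.1) (R 4.3.3, intensity trend, Benjamini-Hochberg over all genes, threshold 0.05), and log2 ratios over 1770 pairs likewise. Estimated counts of LTR, LINE, SINE and DNA loci on the strand of a gene were summed over its span, without loci in several genes of that strand, rounded, and tested with edgeR 4.0.16 at 30 or more counts, with aligned fragments as library size. Exons came from GENCODE 44 (bedtools 2.31.1), sequences from hg38 and RefSeq. DESeq2 1.42.0 and the other alternatives are described below. The fits were run on simulated data with a change larger than that of any member. That run does not show how well smaller changes are found. A count of 0 allows 3 counts, or 0.134 to 0.165 CPM, for counting error only. TPM carries no depth.

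The members and gene lists were chosen with earlier results of these data known. Named members were the 8 most abundant, the 5 with the smallest p in each direction (mean of at least 0.5 TPM), the 5 highest relative to the partner (mean of at least 1 TPM), the 5 with most TE fragments and any called, each with its partner. With 3 against 3 libraries an exact permutation test cannot go below 0.1, so none was run on single values. P-values measure the spread between these lines. Counts and fragments are compared only within these 6 libraries, and TPM values shared between a gene and a near-identical copy are uncertain. A sequence was left out for LY6E-DT, and 1 member that the rule names is counted but not reported here.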

Additional observations from a re-analysis of the deposited data

How the results depend on the processing

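The count of called divergent transcripts stayed at 0 in the limma fit except when low genes (mean under 1 TPM) were dropped (1), and at 0 in the TE fit except with no filter (1) or uniquely mapped counts (1). With the same median gene the summed TPM gave a log2 ratio of -0.023, and quantile normalization left 13 higher and 5 lower partners at p under 0.05, FPKM 17 and 5, and no intensity trend 1 lower. For the ratio, a mean TPM of at least 1 left 1 higher, and pseudocount 1 gave 7 lower. For TE fragments, TMM gave 3 higher and 5 lower and DESeq2 0 and 2, while uniquely mapped counts left 0 lower. The cause of these shifts was not tested, apart from the scaling itself.

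Leaving out each library gave, at p under 0.05, 9 to 14 higher and 1 to 4 lower divergent transcripts, 16 to 25 higher and 1 to 2 lower partners, 1 to 5 higher and 3 to 6 lower ratios, and 5 to 8 higher and 0 to 1 lower TE spans. Lower divergent transcripts numbered 1 without Clover replicate 3 and 2 without Z18trunc replicate 2. Lower partners numbered 1 without Clover replicate 3, and higher partners 18 without Z18trunc replicate 2 and 16 without Z18trunc replicate 3. Higher ratios numbered 1 without Clover replicate 1 and 5 without Clover replicate 3. Lower TE spans numbered 0 without Clover replicate 2, Clover replicate 3 or Z18trunc replicate 1.

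Among single members, the sign turned under quantile normalization for RAB30-DT (-0.029) and CTBP1-DT (-0.11), and when a library was left out for CTBP1-DT (lowest -0.016, highest 0.18), LHX1-DT (-0.43 to 1.13) and FLVCR1-DT (-0.29 to 0.12). For TE fragments it turned without a library in NUP50-DT (-0.11 to 0.035), CTBP1-DT (-0.31 to 0.0011), GAS6-DT (-0.27 to 0.11), PCCA-DT (-0.33 to 0.22) and MAP4K3-DT (-0.28 to 0.0067). It also turned for EIF3J-DT under DESeq2 (-0.025) and TMM (-0.025) and for PCCA-DT with uniquely mapped counts (0.022). For the ratio it turned without a library in LHX1-DT (-0.77 to 0.78) and PAXIP1-DT (-0.0010 to 0.22).

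Replicate numbers did not pair the libraries: deviations of same-numbered libraries correlated at -0.0009, 0.026 and -0.022. With a replicate block, 10 members were higher and 3 lower at p under 0.05, 1 ratio was higher and 4 lower, and 5 TE spans were higher and 0 lower, with no member called.

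Alternatives other than these kept each count within 1.5 times. Precision is limited by 3 libraries a group and by the low level of 36 members under 1 TPM.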

Other observations

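Of the divergent transcripts left out by the detection rule, 5 still held at least 30 TE fragments on their own strand over the 6 libraries. SH3TC2-DT had 173, RPL34-DT 88, EPCAM-DT 78, NSMCE1-DT 47 and SEPTIN7-DT 32. RPL34-DT, EPCAM-DT and NSMCE1-DT were listed at 0 TPM in all 6 libraries. EPCAM-DT lies beside EPCAM, the epithelial cell adhesion gene, and its TE fragments numbered 11, 12 and 16 in Clover and 12, 11 and 16 in Z18trunc. SH3TC2-DT gave 34, 23 and 24 in Clover and 28, 23 and 41 in Z18trunc. None of the 5 passed an adjusted p or an unadjusted p under 0.05 by edgeR (adjusted p from 0.599 to 0.991).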
